A study of Mus musculus with 24 samples.

Results

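States of the Kit+ sort are set against each other here: CD31+ Kit+ cells that carry CD45, the pan-leukocyte surface protein, against CD31+ Kit+ cells that lack it, both from mouse embryos given an antibody that blocks the Notch ligand Dll4. The comparison holds the 4 libraries titled Kit+ CD45+ with anti-Dll4 and the 4 titled Kit+ CD45- with anti-Dll4, 8 of the 24 libraries of the series. The same pair of populations under control IgG, another 8 libraries, was used to ask which differences between the populations became larger or smaller with Dll4 blocked. Per the labels, all groups come from C57BL/6J embryos at stage E10.5 that received antibody into the heart (anti-Dll4, or anti-human IgG for the control). A culture of 5 h followed, with 5 µg/ml of that antibody, and every group shared hydrocortisone (10 µM) and the cytokine IL-3 (10 ng/ml) in this medium. CD31+ cells were then sorted and their polyA RNA was amplified before sequencing. The remaining 8 libraries, Kit- CD41+ CD45- cells under each antibody, entered the fit for its estimate of spread. The labels do not say how many embryos stand behind a library or whether libraries of 1 group came from separate embryos. The tests therefore cover only spread among these libraries, which may be technical. By the sex-linked counts given below, 1 library of each anti-Dll4 group came from other embryos than the rest of its group.

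Blood stem and progenitor cells of the midgestation embryo arise from haemogenic endothelium of the aorta, which buds CD31+ Kit+ clusters into the vessel lumen. CD45 (Ptprc) is gained as cells take on a leukocyte fate, and Spi1 encodes PU.1, the transcription factor that drives myeloid fate. Dll4 is an endothelial Notch ligand, and Notch signalling in the aorta takes part both in arterial identity and in the formation of blood cells. Embryonic erythroid cells and megakaryocytes share the transcription factor Gata1 and lack CD45 or carry little of it, while macrophages of this stage carry CD45 and the colony-stimulating factor receptor Csf1r.

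Sequences are shown for F2rl2 and Gp6, the genes that passed the test of the difference between antibodies, for Clec1b, a platelet receptor that did not pass it, and for Cd68, a macrophage gene higher in Kit+ CD45+ cells under both antibodies. Each is the RefSeq promoter window of GRCm38.p6 from 250 bases before to 50 bases after the gene's start. In the first 3 the capitals mark AGATAA, a form of the site bound by GATA factors, searched on both strands (reverse complement TTATCT). In Cd68 the capitals mark GAGGAA or its reverse complement TTCCTC, a core of PU.1 sites.
F2rl2, chr13:95696670-95696969, plus strand: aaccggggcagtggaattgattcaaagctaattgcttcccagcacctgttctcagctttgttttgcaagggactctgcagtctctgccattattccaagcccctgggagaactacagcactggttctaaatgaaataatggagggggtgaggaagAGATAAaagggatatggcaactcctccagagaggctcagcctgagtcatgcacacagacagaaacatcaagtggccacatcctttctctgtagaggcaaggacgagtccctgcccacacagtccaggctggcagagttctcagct
Gp6, chr7:4397695-4397994, minus strand: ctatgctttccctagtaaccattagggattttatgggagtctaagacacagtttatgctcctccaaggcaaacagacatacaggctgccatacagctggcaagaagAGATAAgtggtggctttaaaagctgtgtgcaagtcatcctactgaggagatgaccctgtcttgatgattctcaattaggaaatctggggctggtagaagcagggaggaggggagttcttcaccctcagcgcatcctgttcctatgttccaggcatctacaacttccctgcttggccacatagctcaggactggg
Clec1b, chr6:129397047-129397346, plus strand: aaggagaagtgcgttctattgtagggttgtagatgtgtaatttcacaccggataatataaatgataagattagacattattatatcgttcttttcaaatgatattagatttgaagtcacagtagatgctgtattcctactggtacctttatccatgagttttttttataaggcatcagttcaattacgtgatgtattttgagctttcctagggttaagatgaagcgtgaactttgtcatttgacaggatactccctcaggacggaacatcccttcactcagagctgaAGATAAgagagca
Cd68, chr11:69666121-69666420, minus strand: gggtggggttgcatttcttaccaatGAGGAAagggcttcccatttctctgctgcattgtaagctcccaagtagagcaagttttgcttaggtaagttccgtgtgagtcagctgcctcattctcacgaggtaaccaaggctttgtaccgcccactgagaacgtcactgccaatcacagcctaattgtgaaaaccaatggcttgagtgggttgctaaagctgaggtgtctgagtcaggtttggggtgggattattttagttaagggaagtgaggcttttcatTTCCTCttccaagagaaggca
AGATAA stood 95 bases before the RefSeq start of F2rl2, 144 bases before that of Gp6 and 37 bases after that of Clec1b. The start of F2rl2 in the deposited annotation lies 67 bases upstream of the RefSeq one, 28 bases after the motif. The table matched 19 of 26 platelet genes, 19 of 28 erythroid, 15 of 30 endothelial and 14 of 20 macrophage genes, some with more than 1 window. AGATAA was found in 6 of 19 platelet promoters (31.6%), in 7 of 20 erythroid promoters (35%), in 3 of 20 endothelial promoters (15%) and in 0 of 15 macrophage promoters, against 11.2% of all 32851 windows of this length and 6.86% of the 13870 windows of genes tested. GAGGAA was found in 9 of 15 macrophage promoters (60%), 10 of 19 platelet promoters (52.6%), 9 of 20 endothelial promoters (45%) and 5 of 20 erythroid promoters (25%), against 28.3% of all windows and 26.9% of those of genes tested. In the 4 windows shown no match of one motif overlapped a match of the other, and a match describes the sequence and not a bound site. Each window was marked for 1 motif only, and in F2rl2 a GAGGAA left in lower case stands just before the marked AGATAA. Spi1 had no entry in the promoter table and is named only.

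The sort could be read from the libraries. Ptprc had 59.2, 108, 66.0 and 83.3 CPM (counts set to one library size by TMM scaling) in Kit+ CD45+ libraries, against 0.956, 0.630, 0 and 0 CPM in Kit+ CD45- libraries under anti-Dll4. Spi1 had 305, 290, 300 and 310 CPM in Kit+ CD45+ libraries, against 38.0, 44.1, 52.0 and 44.6 CPM in Kit+ CD45- libraries, a log2 fold change of 2.75 (SE 0.26, edgeR quasi-likelihood adjusted p = 4.2e-08). Neither gene's groups overlapped. Kit itself, the stem cell factor receptor present on both sorted populations, averaged 64.2 ± 11.8 CPM in Kit+ CD45+ and 33.6 ± 11.7 CPM in Kit+ CD45- libraries (SD, n = 4 each; adjusted p = 0.012), and this call was lost without Kit+ CD45- anti-Dll4 replicate 4 (adjusted p = 0.057). Pecam1, which encodes CD31, was detected in all 8 libraries, between 128 and 267 CPM in Kit+ CD45+ and between 47.0 and 120 CPM in Kit+ CD45-. Library totals ran from 8727591 to 11115548 counts and did not differ by an exact permutation test (two-sided p = 0.743). Globin transcripts made up 0.0149 ± 0.00603% of counts in Kit+ CD45+ and 35.4 ± 11.2% in Kit+ CD45- libraries (SD, n = 4 each; exact permutation p = 0.0286, the smallest that 4 against 4 allows, 0.0714 after adjustment over 5 library measures). The libraries numbered 1 under anti-Dll4 were male in all 3 populations: the Kit+ CD45+ library held 3067 Y-linked and 1 Xist count, the Kit+ CD45- library 1756 and 5, and the Kit- library 2590 and 1. Every other library held at most 15 Y-linked and at least 1455 Xist counts, so each anti-Dll4 group has 1 male library and the IgG groups none. In sorted bulk samples, fewer cells of a type and less RNA per cell cannot be told apart.

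Across all genes the 2 populations differed widely under anti-Dll4. Of 15618 genes tested, 4560 passed an adjusted p of 0.05 (29.2%), and 2662 of these differed by over 2-fold. In Kit+ CD45+ cells 2590 were higher (16.6%) and 1970 lower (12.6%). The 10 genes with the smallest p among those higher were leukocyte and myeloid genes or genes of general function, among them Rnf130, Alox5ap, which activates 5-lipoxygenase, the chemokines Ccl3 and Ccl4, Casp8, the macrophage lysosomal protein Cd68, Lsp1, Nrros and the actin-capping Capg. Rnf130 averaged 240 CPM in Kit+ CD45+ and 57.6 CPM in Kit+ CD45- libraries (log2 fold change 2.06, SE 0.14). Ccl3 was at 460, 394, 278 and 224 CPM in Kit+ CD45+ libraries, against 0.137 CPM in 1 Kit+ CD45- library and 0 in the other 3. The 10 with the smallest p among those lower were led by erythroid genes, among them Alas2, the first enzyme of haem synthesis in red cells, the embryonic globins Hbb-y and Hba-x, Hba-a2, the Rhesus antigen gene Rhd and Trim10, next to Hsd3b6, Fam210b, Apex2 and Ube2l6. Alas2 averaged 0.483 CPM in Kit+ CD45+ libraries, against 2341 CPM in Kit+ CD45- libraries. Apex2 (chrX:150519519-150589868, minus strand) spans all of Alas2 (chrX:150547375-150570638, plus strand). In the Kit+ CD45- anti-Dll4 libraries it had 2237, 4810, 3446 and 3108 counts, beside 11041, 26255, 16872 and 13090 of Alas2. Its counts may therefore hold reads of Alas2, which was not tested. The split between directions moved with the scaling: upper-quartile scaling gave 2086 higher and 2425 lower, and the median over all genes tested was -0.0128 there and 0.0963 with TMM on the log2 scale.

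Under IgG the same comparison called 2998 genes (19.2%), 1564 higher (10%) and 1434 lower (9.18%). A total of 2340 genes passed under both antibodies, 51.3% of the calls under anti-Dll4 and 78.1% of those under IgG, and all 2340 had the same direction, 1283 higher and 1057 lower. The log2 fold changes correlated across genes (Pearson r = 0.818, 15618 genes, which are not independent replicates; the comparisons share no library). Fold changes were larger in size under anti-Dll4 for 1647 of the shared genes (70.4%), and for 61.8% of all genes tested. The difference between the antibodies was tested as its own contrast, the log2 fold change under anti-Dll4 minus that under IgG, and called 2 genes, 0.0128% of those tested, both with a positive value: F2rl2 and Gp6. At an unadjusted p under 0.05 it held 924 genes (5.92%). Of the 2220 genes called under anti-Dll4 alone, 0 passed this test, so a call under one antibody and not the other did not by itself show a changed difference. DESeq2 called 33 genes in this contrast.

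**Figure D1:**
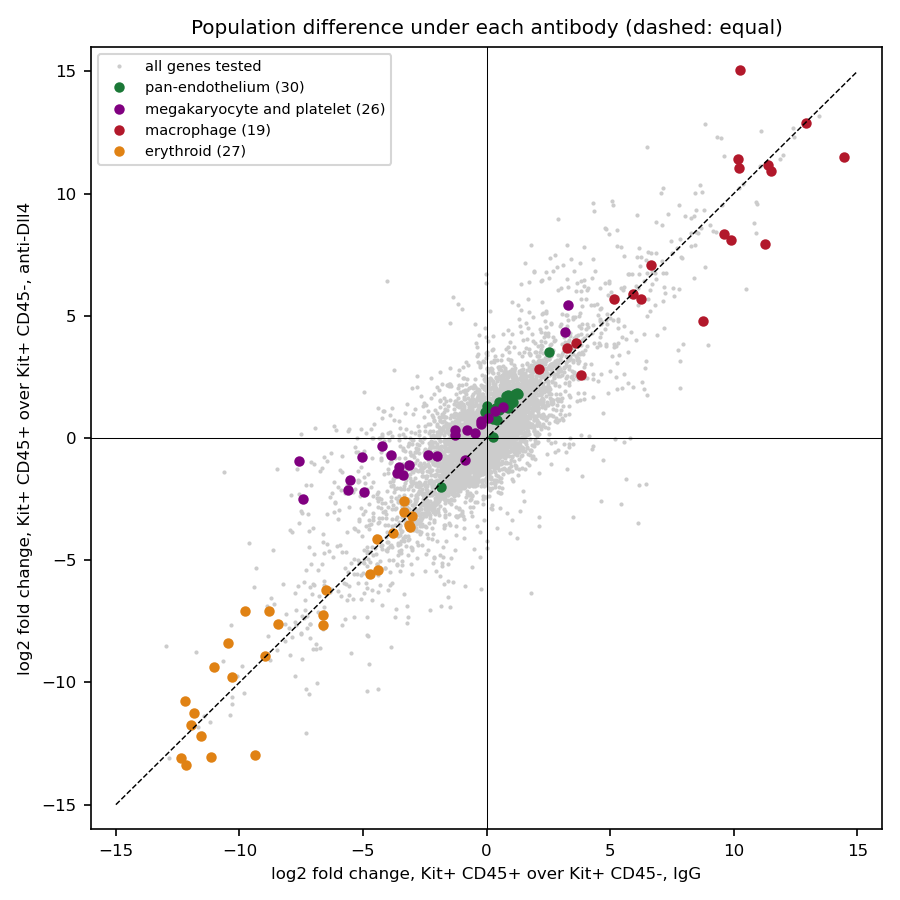
Log2 fold change of Kit+ CD45+ over Kit+ CD45- cells under anti-Dll4 (vertical axis) against that under IgG (horizontal axis), with all 15618 genes tested in grey and the members of 4 lists in colour; the dashed line marks equal values. Platelet genes lie above the line on its lower left side, endothelial genes lie just above it near the centre, and macrophage and erythroid genes scatter about it.

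The platelet and megakaryocyte genes held both calls of the contrast between antibodies, F2rl2 and Gp6, and both differences narrowed. Over the whole list the log2 fold change was smaller in size under anti-Dll4 for 18 of the 26 tested members and larger for 8 (30.8%, against 61.8% of all genes). Under IgG, 18 members were lower in Kit+ CD45+ cells and 3 higher; under anti-Dll4, 8 were lower and 5 higher, beside the 12.6% and 16.6% of all genes given above. The 8 lower members were all among the 18. Every Kit+ CD45+ library was below every Kit+ CD45- library for 7 members under anti-Dll4 (9.36% of all genes) and for 15 under IgG (8.79% of all genes). The median log2 fold change of the list was -0.70 under anti-Dll4 and -2.18 under IgG. The median under anti-Dll4 was -0.41 without Kit+ CD45+ replicate 1 or 4, -0.40 without Kit+ CD45- replicate 1 of the anti-Dll4 libraries and -0.19 without number 1 in every group. The difference between antibodies was positive for 25 of the 26 members, against 53.5% of all genes, with a median of 1.76 against 0.04 for all genes. Its unadjusted p was under 0.05 for 21 members (80.8%, against 5.92% of all genes). This list and those below were chosen with earlier results of these data known. Their members are read in the same libraries and are not independent replicates, so such shares describe a list and test nothing.

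F2rl2, the thrombin receptor PAR3 that mouse platelets use as a cofactor for PAR4, lay at chr13:95696853-95702739 on the plus strand (mm10). It had 17.0, 31.8, 35.3 and 51.7 CPM in Kit+ CD45+ libraries, against 171, 151, 120 and 160 CPM in Kit+ CD45- libraries under anti-Dll4. Under IgG it had 1.4, 7.11, 8.22 and 7.35 CPM in Kit+ CD45+ libraries, against 137, 345, 309 and 367 CPM in Kit+ CD45- libraries. Every Kit+ CD45+ library was below every Kit+ CD45- library under each antibody. The Kit+ CD45+ libraries were all higher under anti-Dll4 than under IgG, and 3 of the 4 IgG Kit+ CD45- libraries were above all 4 anti-Dll4 ones. The log2 fold change was -2.14 (SE 0.35) under anti-Dll4 and -5.60 (SE 0.41) under IgG, and the difference of 3.45 (SE 0.50) passed the test (edgeR adjusted p = 0.0064). It kept the call without any 1 of the 16 Kit+ libraries, but not in a fit to the 16 Kit+ libraries without the Kit- groups (adjusted p = 0.20) or without number 2, 3 or 4 in every group (0.20, 0.62 and 0.56).

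Gp6, the collagen receptor of platelets (glycoprotein VI), lay at chr7:4363965-4397744 on the minus strand. It had 0.279, 2.87, 1.2 and 1.61 CPM in Kit+ CD45+ libraries, against 2.87, 4.66, 1.70 and 2.40 CPM in Kit+ CD45- libraries under anti-Dll4, and these overlapped. Under IgG 3 Kit+ CD45+ libraries held no Gp6 count and the other held 4 counts, against 2.77, 26.4, 13.5 and 25.3 CPM in Kit+ CD45- libraries. The log2 fold change was -0.92 under anti-Dll4 (SE 0.59, adjusted p = 0.26) and the difference between antibodies was 6.65 (SE 1.08, adjusted p = 0.021), a size that depends on how near-zero counts are treated. Leaving out 1 library ended the call in 6 of 16 cases, with adjusted p-values of 0.16 and 0.054 without Kit+ CD45+ anti-Dll4 replicate 2 or 4, 0.079 without Kit+ CD45- anti-Dll4 replicate 3, 0.081 and 0.092 without Kit+ CD45+ IgG replicate 1 or 4, and 0.051 without Kit+ CD45- IgG replicate 4; the replicate block also ended it (0.13).

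Other surface receptors of platelets had differences in the same direction that did not pass. Clec1b, the receptor for podoplanin, had 105, 120, 135 and 118 CPM in Kit+ CD45+ libraries, against 113, 115, 80.9 and 68.6 CPM in Kit+ CD45- libraries under anti-Dll4. Under IgG it averaged 95.1 ± 21.0 CPM in Kit+ CD45+ and 165 ± 24.4 CPM in Kit+ CD45- libraries (SD, n = 4 each), with no overlap. The difference between antibodies was 1.13 (SE 0.23, adjusted p = 0.13, but 0.038 without Kit+ CD45- IgG replicate 1 and 0.041 without Kit+ CD45+ IgG replicate 2), and the gene was lower in Kit+ CD45+ cells under IgG alone (-0.79, adjusted p = 0.0012). Gp1bb, a subunit of the von Willebrand factor receptor, averaged 18.6 ± 12.4 CPM in Kit+ CD45+ and 62.1 ± 29.5 CPM in Kit+ CD45- libraries under anti-Dll4, and 3.22 ± 2.89 CPM in Kit+ CD45+ and 148 ± 81.4 CPM in Kit+ CD45- libraries under IgG (SD, n = 4 each). It was lower in Kit+ CD45+ cells under both antibodies, with a difference between them of 3.81 (SE 0.82, adjusted p = 0.18, but 0.037 without Kit+ CD45- IgG replicate 1). Its call under anti-Dll4 (adjusted p = 0.022) was lost without replicate 1 or 4 of Kit+ CD45+ (0.073 and 0.076) or of Kit+ CD45- (0.072 and 0.069). The other subunits of that complex, Gp1ba, Gp5 and Gp9, had differences of 3.91, 3.15 and 2.18, none of which passed. Ly6g6f and Cd226, platelet surface proteins outside the list, were among the 10 genes with the smallest p in the contrast, with differences of 5.6 and 9.22 and adjusted p-values of 0.086 and 0.18; Cd226 had no count in any Kit+ CD45+ IgG library, so its fitted size is not a bound. Ly6g6f passed without Kit+ CD45+ anti-Dll4 replicate 1 (adjusted p = 0.0058) or Kit+ CD45- IgG replicate 1 (0.0055).

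Treml1, Tubb1 and Thbs1, granule and cytoskeletal genes of platelets, were lower in Kit+ CD45+ cells under both antibodies, while Selp, Mmrn1 and Vwf, also granule genes, were higher there under anti-Dll4. Treml1, a granule protein that reaches the surface on activation, had 4.66, 15.5, 14.8 and 6.95 CPM in Kit+ CD45+ libraries, against 61.3, 56.9, 26.0 and 49.8 CPM in Kit+ CD45- libraries under anti-Dll4, (log2 fold change -2.21, SE 0.55, adjusted p = 0.0042). Tubb1, the platelet beta-tubulin, was lower by -2.51 under anti-Dll4 (adjusted p = 0.0053) and -7.42 under IgG, and Thbs1, which encodes thrombospondin, by -1.52 and -3.38. Pf4, platelet factor 4, ranged from 164 to 264 CPM in Kit+ CD45+ libraries and from 105 to 1008 CPM in Kit+ CD45- libraries under anti-Dll4, groups that overlapped (adjusted p = 0.19), while under IgG it was lower in Kit+ CD45+ cells (-3.55, adjusted p = 9e-04). Nfe2, a transcription factor of platelet release, was lower by nearly the same amount under each antibody (-0.88 and -0.87). The 5 members that were higher in Kit+ CD45+ cells under anti-Dll4 were Gng11, Selp, Mmrn1, P2ry12 and Vwf; Selp, Mmrn1 and Vwf are also made by endothelium and P2ry12 by microglia and macrophages. Gng11, a G protein subunit, had 341, 257, 223 and 240 CPM in Kit+ CD45+ libraries, against 152, 114, 84.1 and 83.3 CPM in Kit+ CD45- libraries (1.29, SE 0.20, adjusted p = 2.7e-05), and its log2 fold change under IgG was 0.66. That of Selp, the adhesion receptor P-selectin, was 5.42 under anti-Dll4 and 3.28 under IgG. Neither difference passed the contrast between antibodies.

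The list's values moved in both populations. Its mean CPM was higher under anti-Dll4 than IgG in Kit+ CD45+ cells for 22 of 26 members (84.6%, against 49.7% of all genes) and, in Kit+ CD45- cells, lower under anti-Dll4 for 25 of 26 (96.2%, against 53.8%). The lower mean in Kit+ CD45- cells was shared by 93.3% of pan-endothelial genes and by 0 of 27 erythroid genes. The mean log2(CPM + 1) over the list ran from 4.21 to 5.03 in Kit+ CD45+ libraries and from 4.77 to 5.27 in Kit+ CD45- libraries under anti-Dll4, which overlapped. Under IgG it ran from 3.41 to 4.13 in Kit+ CD45+ libraries and from 4.84 to 6.55 in Kit+ CD45- libraries, which did not. Kit+ CD45- IgG replicate 1 was the lowest of its group at 4.84, against 5.86 to 6.55 in the other 3. With that library and Kit+ CD45+ IgG replicate 1 left out, a choice made after seeing the data, 26 of 26 members had a positive difference and 11 genes passed the contrast, F2rl2 (adjusted p = 1.29e-05) and Gp6 (adjusted p = 0.000615) among them.

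**Figure D2:**
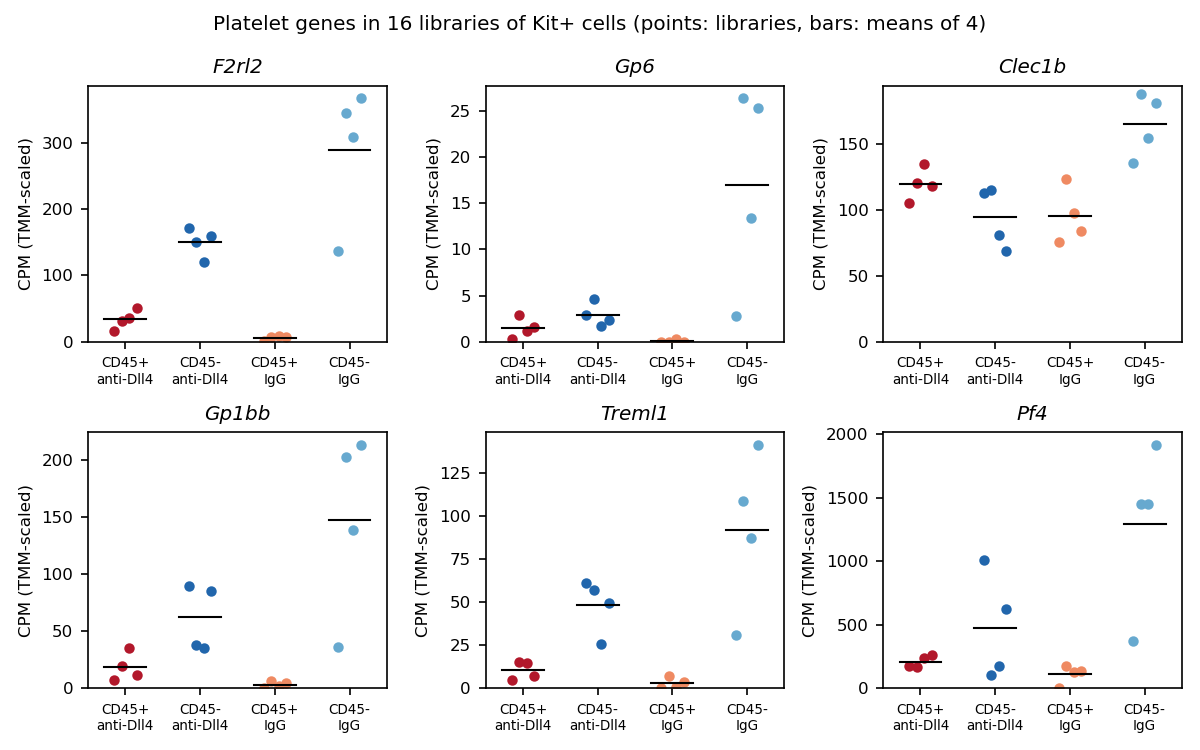
CPM (vertical axis, linear from 0) of 6 platelet genes in the 16 Kit+ libraries, 4 per group, with a point for each library and a bar at the mean. For F2rl2 the Kit+ CD45+ anti-Dll4 libraries sit between 17.0 and 51.7 CPM and the Kit+ CD45+ IgG libraries between 1.4 and 8.22 CPM, while 1 Kit+ CD45- IgG library stands below its group for all 6 genes.

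Most endothelial genes stood higher in Kit+ CD45+ cells when Dll4 was blocked. Of the 30 pan-endothelial members tested, 21 were higher and 1 was lower, and 23 had every Kit+ CD45+ library above every Kit+ CD45- library, against 15.1% of all genes; under IgG, 5 were higher and 1 lower, and 3 stood apart upward (10.9% of all genes). The 5 were higher under anti-Dll4 too, and 16 more passed there alone. The median log2 fold change was 1.32 under anti-Dll4 and 0.61 under IgG. The difference between antibodies was positive for 28 of 30 members (53.5% of all genes) with a median of 0.73, and it had an unadjusted p under 0.05 for 4 (13.3%, against 5.92%), and passed for 0, the smallest adjusted p being 0.57, so no endothelial difference was shown to widen.

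Fli1, an ETS transcription factor of endothelium and blood, had 62.5, 67.3, 74.2 and 80.5 CPM in Kit+ CD45+ libraries, against 40.3, 21.0, 42.2 and 24 CPM in Kit+ CD45- libraries under anti-Dll4. Under IgG it had 68.5, 59.8, 67.6 and 60.1 CPM in Kit+ CD45+ libraries, against 72.0, 30.9, 53.7 and 63.6 CPM in Kit+ CD45- libraries. The groups were apart under anti-Dll4 and overlapped under IgG, with a difference between antibodies of 0.94 (SE 0.30, adjusted p = 0.57). Esam, an endothelial junction protein, had 95.5, 230, 254 and 252 CPM in Kit+ CD45+ libraries, against 85.4, 92.3, 78.6 and 39.8 CPM in Kit+ CD45- libraries (1.49, SE 0.29, adjusted p = 0.00049). Calcrl, the adrenomedullin receptor, and Egfl7, a secreted endothelial factor, were higher by 1.5 and 1.39 (adjusted p = 0.00013 and 6e-05), with differences between antibodies of 0.77 and 0.44. Cdh5, VE-cadherin, had 30.4, 34.5, 33 and 36.3 CPM in Kit+ CD45+ libraries, against 22.5, 13.6, 13.3 and 15.5 CPM in Kit+ CD45- libraries under anti-Dll4. Its groups did not overlap, yet the fit missed the threshold (1.05, SE 0.40, adjusted p = 0.052). It passed in DESeq2 (0.0081) and without Kit+ CD45- anti-Dll4 replicate 1 (0.042) or Kit+ CD45- IgG replicate 1 (0.043) and with the replicate block (0.049). Under IgG it averaged 30.0 ± 7.25 CPM in Kit+ CD45+ and 31.0 ± 10.6 CPM in Kit+ CD45- libraries (SD, n = 4 each). Kdr, Flt1, Tie1, Eng, Plvap and the SOX factor Sox18 were also higher under anti-Dll4, by 1.14 to 1.78. Tal1, a factor shared with the erythroid lineage, was the lower member, by -2.0 under anti-Dll4 and -1.86 under IgG.

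The values behind this lay on the Kit+ CD45- side. In Kit+ CD45- cells the mean CPM under anti-Dll4 was below that under IgG for 28 of 30 members (93.3%, against 53.8% of all genes), and higher in Kit+ CD45+ cells for 11 of 30 (36.7%, against 49.7%). The lower mean in Kit+ CD45- cells was not particular to endothelial genes. It held for 94.7% of arterial, 100% of venous, 96.2% of platelet, 94.4% of leukocyte surface and 88.9% of immediate early genes. Among macrophage genes the share was 57.9%, among S phase genes 35%, and among G2 and M phase genes 21.7%. It held for 0 of 27 erythroid genes. Whether a larger erythroid share of these libraries lies behind it was not tested. Mean log2(CPM + 1) over the list ran from 6.10 to 6.73 in Kit+ CD45+ and from 4.74 to 5.54 in Kit+ CD45- libraries under anti-Dll4. Under IgG it ran from 6.19 to 6.76 in Kit+ CD45+ and from 5.49 to 6.54 in Kit+ CD45- libraries, and the 6.54 was replicate 1, against 5.49 to 5.79 in the other 3. Globin transcripts took up 35.4 ± 11.2% of counts in Kit+ CD45- libraries under anti-Dll4 and 26.9 ± 7.21% under IgG (SD, n = 4 each), and with globin genes removed before scaling the list's median was 1.24 under anti-Dll4 and its median difference between antibodies 0.70, the all-gene median difference then being 0.01. The median difference of 0.73 was 0.43 without Kit+ CD45- IgG replicate 1, 0.36 without number 1 of both IgG populations and 0.48 without number 4 in every group. With number 1 of both IgG populations left out, 29 of 30 members had a positive difference. The median under IgG, 0.61, was 0.95 without number 1 and 0.40 without number 2 in every group. The number called higher under anti-Dll4 was 17 without Kit+ CD45- anti-Dll4 replicate 4 and 12 without number 4 in every group.

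Arterial genes showed few differences between the populations. Of 19 tested, 1 was higher under anti-Dll4 (5.26%, against 16.6% of all genes). It was Acvrl1, a BMP9 receptor (1.76, SE 0.57, edgeR adjusted p = 0.022). The Acvrl1 call was lost in DESeq2 (adjusted p = 0.084) and when Kit+ CD45+ replicate 2 or 4 or Kit+ CD45- replicate 4 of the anti-Dll4 libraries was left out (0.071, 0.056 and 0.078). The median of the arterial list was 0.55 under anti-Dll4 and -0.46 under IgG, with a positive difference for 16 of 19 (84.2%, against 53.5% of all genes). Cxcr4, Efnb2 (ephrin-B2) and Notch4 had the smallest p in the contrast, with differences of 1.51, 1.24 and 1.09 and adjusted p-values of 0.76, 0.79 and 0.83. Efnb2 had 12.2, 10.8, 12.4 and 8.14 CPM in Kit+ CD45+ libraries, against 11.6, 3.65, 8.40 and 5.47 CPM in Kit+ CD45- libraries under anti-Dll4, and 29.5 CPM in Kit+ CD45- IgG replicate 1 was the highest of all. Dll4 transcripts, the target of the antibody, averaged 10.6 CPM in Kit+ CD45+ and 6.36 CPM in Kit+ CD45- libraries and overlapped (adjusted p = 0.43); an antibody against the protein does not remove its RNA, so this level is no check of the treatment. Venous genes had 3 of 9 higher under anti-Dll4, Ephb4, Flt4 and Tll1 (33.3%, against 16.6% of all genes), and 0 under IgG (10% of all genes). The difference between antibodies was positive for 9 of 9 (against 53.5% of all genes), with 0 passing. The Flt4 call (adjusted p = 0.027) was lost without Kit+ CD45+ replicate 2, 3 or 4 (0.073, 0.058 and 0.073) or Kit+ CD45- replicate 2 or 4 (0.068 and 0.096) of the anti-Dll4 libraries and with the replicate block (0.056), and that of Ephb4 (0.012) without Kit+ CD45+ anti-Dll4 replicate 4 (0.055).

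**Figure D3:**
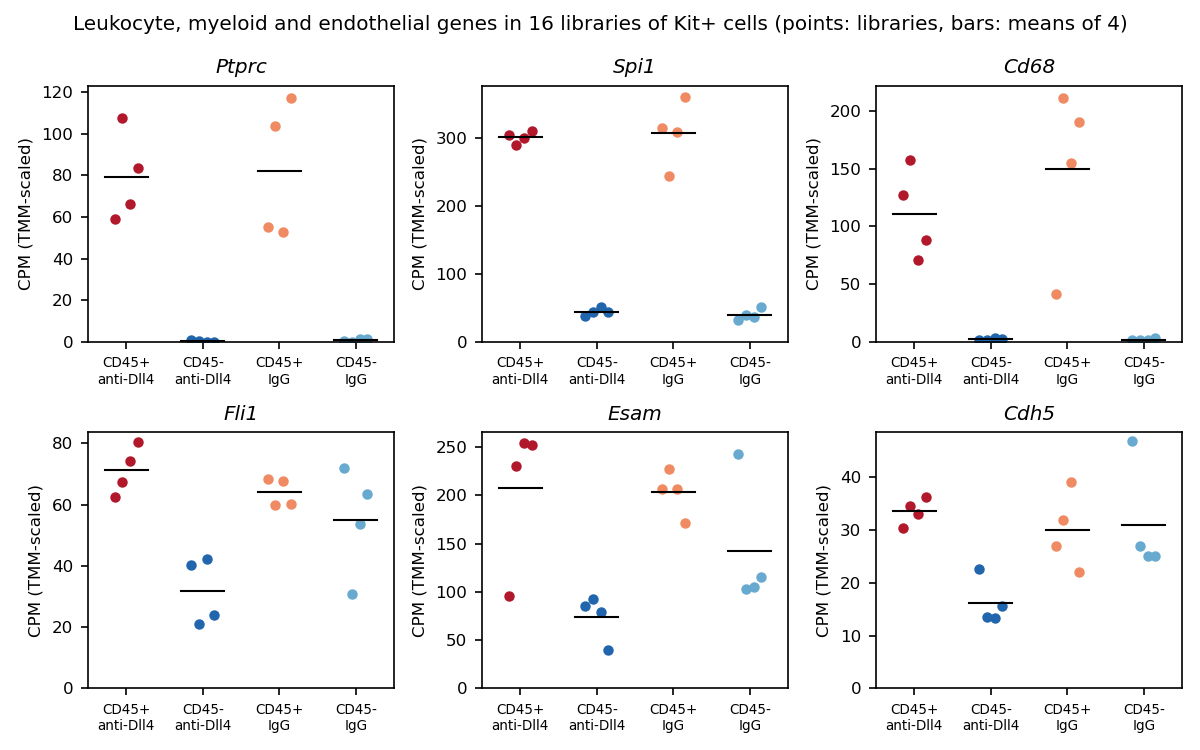
CPM (vertical axis, linear from 0) of Ptprc, Spi1, the macrophage gene Cd68 and the endothelial genes Fli1, Esam and Cdh5 in the 16 Kit+ libraries, 4 per group, with a point per library and a bar at the mean. For Cdh5 the Kit+ CD45+ anti-Dll4 libraries lie between 30.4 and 36.3 CPM, above Kit+ CD45- anti-Dll4 libraries between 13.3 and 22.5 CPM, and 1 Kit+ CD45- IgG library reaches 46.9 CPM.

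Macrophage genes were higher in Kit+ CD45+ cells under both antibodies. All 19 tested members were higher under anti-Dll4 (16.6% of all genes), with no overlap for any of them (15.1% of all genes). All 19 were higher under IgG (10% of all genes), where 15 had no overlap (10.9% of all genes). Some members, with C1qb, Ctss and Msr1 among them, had no count in the Kit+ CD45- anti-Dll4 libraries. They were tested because other groups held counts, so the full count of 19 is partly set by the filter. Mrc1, Fcer1g, Msr1 and Timd4 overlapped under IgG. The difference between antibodies was positive for 8 and negative for 11, and 0 members reached even an unadjusted p under 0.05. Its median was -0.06, and this moved with the libraries used. It was -0.40 without Kit+ CD45+ IgG replicate 1 or without Kit+ CD45+ anti-Dll4 replicate 2. Without number 1 of both IgG populations it was -0.57, and without number 4 in every group 0.34. Cd68 had 127, 157, 70.9 and 88.1 CPM in Kit+ CD45+ libraries, against 1.37, 1.89, 2.90 and 2.19 CPM in Kit+ CD45- libraries under anti-Dll4 (log2 fold change 5.70, SE 0.46), and its difference between antibodies was -0.53 (SE 0.62, adjusted p = 0.96). C1qb, a complement subunit of macrophages, averaged 411 ± 156 CPM in Kit+ CD45+ libraries (SD, n = 4) and had no count in the 4 Kit+ CD45- libraries, which makes it at least 942-fold higher; the floor, 3 counts in each library, covers counting error only. The cysteine protease Ctss and the scavenger receptor Msr1 also had no count there, at least 208-fold and 77.0-fold higher. Csf1r had 30.4, 63.3, 53.8 and 26.2 CPM in Kit+ CD45+ libraries, against 2.32, 3.02, 1.4 and 5.47 CPM in Kit+ CD45- libraries. The sum of the list ran from 1589 to 3291 CPM in Kit+ CD45+ libraries and from 45.0 to 95.5 CPM in Kit+ CD45- libraries under anti-Dll4. Under IgG it ran from 398 to 3878 CPM in Kit+ CD45+ libraries, the lowest being replicate 1, and from 62.3 to 134 CPM in Kit+ CD45- libraries.

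Most granulocyte-monocyte genes and myeloid transcription factors were also higher in Kit+ CD45+ cells. Of 11 tested granulocyte-monocyte genes 9 were higher under anti-Dll4 (81.8%, against 16.6% of all genes) and 7 under IgG (63.6%, against 10%). Under each antibody 6 had no overlap (15.1% of all genes under anti-Dll4 and 10.9% under IgG), and 0 passed the contrast. With libraries left out, 6 to 10 were higher under anti-Dll4. Mpo, the peroxidase of early granulocytes and monocytes, had 262, 339, 208 and 129 CPM in Kit+ CD45+ libraries, against 4.78, 17.9, 11.9 and 7.87 CPM in Kit+ CD45- libraries under anti-Dll4 (4.45, SE 0.73, adjusted p = 6.7e-05). Its difference between antibodies was -0.33 (SE 0.93). Csf3r, the G-CSF receptor, had the smallest p of the list in the contrast (4.15, SE 1.26, adjusted p = 0.55), with 10.0 CPM on average in Kit+ CD45+ and 0.0656 CPM in Kit+ CD45- libraries under anti-Dll4, and 8.86 CPM in Kit+ CD45+ and 1.2 CPM in Kit+ CD45- libraries under IgG; the size rests on 2 counts in all in the Kit+ CD45- anti-Dll4 libraries. Cebpa, Cebpe, S100a8, S100a9, Ngp and Ly6c2 were in the table and too low to be tested, and Ctsg was not analysed here. Of 10 tested myeloid factors 9 were higher under anti-Dll4 (90%, against 16.6% of all genes) and 7 under IgG (70%, against 10%), and 0 passed the contrast. Spi1, Irf5 and Cebpd had the smallest p-values under anti-Dll4, and their differences between antibodies were -0.21, -0.43 and 0.21. Klf4 was the member that did not pass. No myeloid gene of these lists was shown to widen or narrow.

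**Figure D4:**
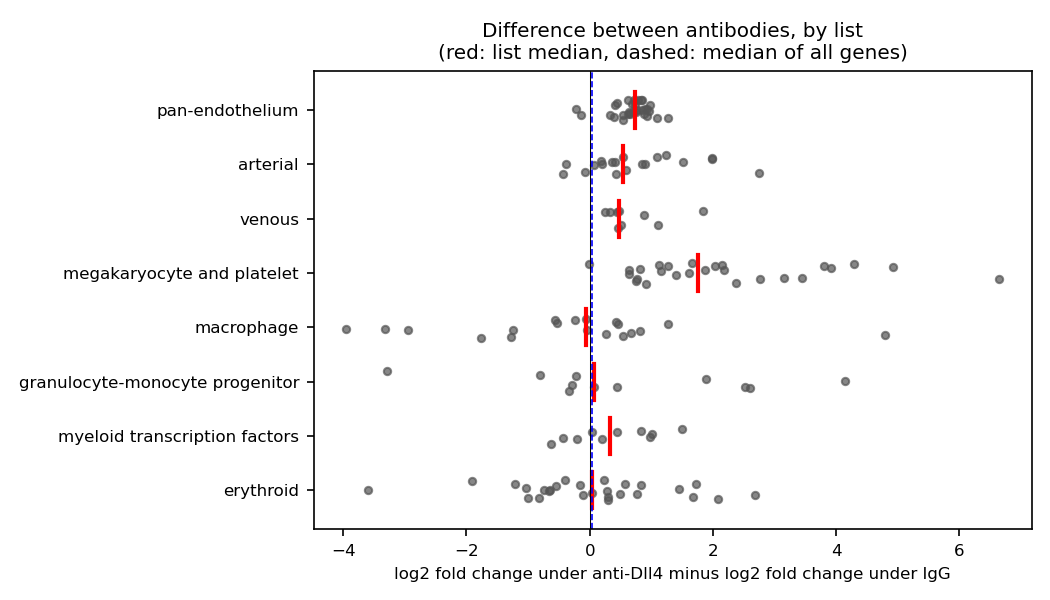
Log2 fold change (Kit+ CD45+ over Kit+ CD45-) under anti-Dll4 minus that under IgG, 1 point per gene (horizontal axis) and 1 row per list, with the list median in red and the median of all genes dashed at 0.04. Platelet members lie to the right with a median of 1.76, endothelial members cluster near 0.73, and macrophage members spread to both sides.

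Erythroid genes were the counterpart on the Kit+ CD45- side. All 27 tested members were lower in Kit+ CD45+ cells under anti-Dll4 (12.6% of all genes) and under IgG (9.18% of all genes). No member overlapped under either antibody (9.36% of all genes lay apart downward under anti-Dll4 and 8.79% under IgG), and 0 passed the contrast between antibodies. Members with no count in Kit+ CD45+ libraries were tested because other groups held counts, so the full count is partly set by the filter. Hbb-y, an embryonic beta-like globin, had 12.9, 56.9, 15 and 22 CPM in Kit+ CD45+ libraries, against 193242, 222827, 92857 and 404061 CPM in Kit+ CD45- libraries under anti-Dll4. Trim10 and Slc4a1, the anion exchanger of red cells, had no count in Kit+ CD45+ libraries, at least 400-fold and 436-fold lower against the floor. Platelet genes share the factor Gata1 with this list, and Gata1 had 22.3, 41.1, 35.7 and 17.7 CPM in Kit+ CD45+ libraries, against 137, 213, 147 and 190 CPM in Kit+ CD45- libraries (-2.56, SE 0.56, adjusted p = 0.0013). Its difference between antibodies was 0.77 (adjusted p = 0.94). Removing globin genes before scaling left F2rl2 and Gp6 as the calls of the contrast (adjusted p = 0.0057 and 0.021).

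**Figure D5:**
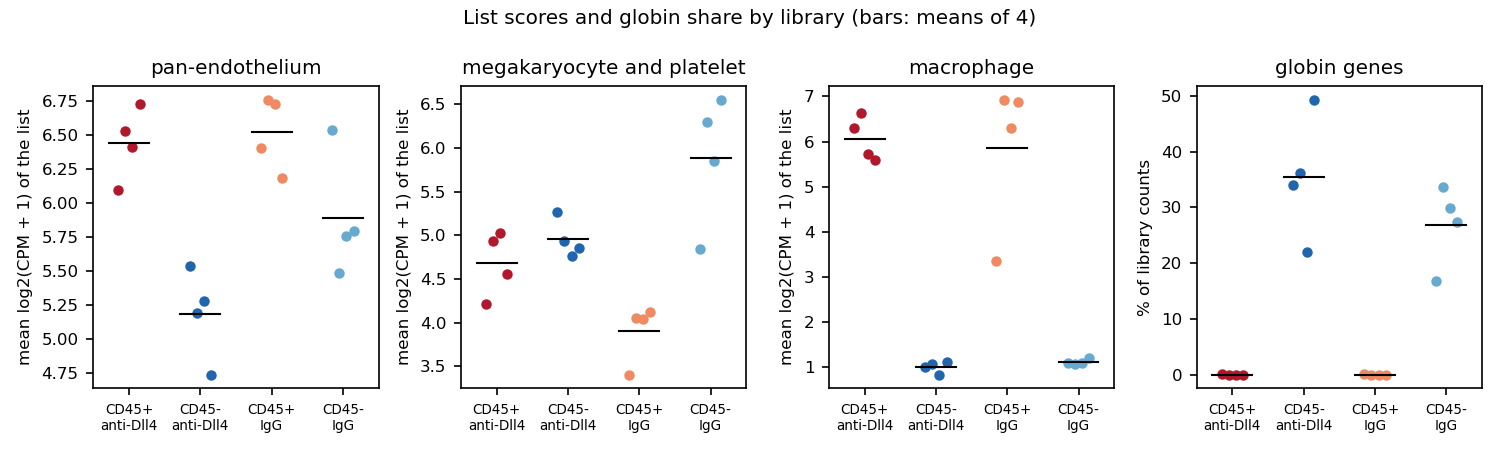
Mean log2(CPM + 1) over the pan-endothelial, platelet and macrophage lists and the share of counts from globin genes in percent (vertical axes), per library, for the 4 groups of Kit+ cells, with bars at the means. Platelet scores of Kit+ CD45+ and Kit+ CD45- libraries overlap under anti-Dll4 and are apart under IgG, and globin shares are near 0 in all Kit+ CD45+ libraries.

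Blood transcription factors and progenitor genes had members higher in each population. Runx1, required for blood formation from endothelium, averaged 105 CPM in Kit+ CD45+ and 34.9 CPM in Kit+ CD45- libraries (1.59, SE 0.24, adjusted p = 3e-05), and 10 of 23 blood factors were higher (43.5%, against 16.6% of all genes) and 4 lower (17.4%, against 12.6%), the 4 being Tal1, Gfi1b, Gata1 and its cofactor Zfpm1. Of 27 stem and progenitor genes 13 were higher (48.1%), among them Procr (2.21), Hlf (2.50) and Cd34 (1.86), and 2 lower, including Mllt3 (-3.55). Notch pathway genes had 6 of 26 higher (23.1%) and 1 lower (3.85%), with Mfng, a glycosyltransferase that modifies Notch, at 56.3, 92.1, 78.1 and 94.8 CPM in Kit+ CD45+ libraries, against 18.3, 20, 31.1 and 14.9 CPM in Kit+ CD45- libraries. Among Notch targets 3 of 16 were higher, Myc, Gata2 and Nrarp, a share of 18.8% that lies near the 16.6% of all genes. The Gata2 call (adjusted p = 0.021) was lost without Kit+ CD45+ replicate 2 (0.089) or Kit+ CD45- replicate 1, 2 or 4 (0.057, 0.085 and 0.050) of the anti-Dll4 libraries, and Hes1 did not pass (49.1 CPM in Kit+ CD45+ and 29.2 CPM in Kit+ CD45- libraries, adjusted p = 0.059). None of these 4 lists had a member past the contrast between antibodies.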

How the data were processed

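The submitters' processing notes name CASAVA 1.4 and FastQC, then STAR and HTSeq, DESeq2 and the build mm10; annotation release and the role of each tool: not given in the sources used here. Raw counts deposited by the authors are whole reads per gene, not normalized, and gave every test. The deposited log2 values equal log2(count / size factor + 1) and were used for that check alone; 1 of their columns has no sample in the labels and stayed out.

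Counts were fitted with edgeR 4.0.16 (R 4.3.3), TMM scaling, filterByExpr by group, robust quasi-likelihood F-test, 1 coefficient for each of 6 groups, 24 libraries and 18 residual degrees of freedom. P-values were adjusted by Benjamini-Hochberg over 15618 genes (threshold 0.05). The SE is the fold change over the root of F. CPM are TMM-scaled. Precision is limited by the spread among the 4 libraries of a group (common coefficient of variation 0.343) and, for genes of low count, by depth. The 8 libraries of the comparison held 8727591 to 11115548 counts each. Globin genes took 22.1 to 49.3% of these in the Kit+ CD45- anti-Dll4 libraries. Reads carry no molecular identifiers. On simulated data at 2-fold, 58% of changed genes were recovered in the comparison under anti-Dll4, and 40% in the contrast between antibodies. The simulation gave each unchanged gene 1 mean in all 6 groups and drew changed genes from those averaging above 5 CPM. It held neither the globin difference nor the wide population difference of the real libraries. These rates therefore need not hold for the real data or for genes of low count.

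Members and lists (23 lists, 416 genes, 380 tested) were chosen with earlier results of these data known. Named genes were the top 10 by p in either direction and in the contrast, the 3 with the smallest p per main list and contrast (2 for other lists), all at 5 CPM or more in the higher group, and fixed landmarks. Other genes named are list members that were chosen after their values were seen. Alternatives were DESeq2 1.42.0, upper-quartile scaling, globin removal, other filters, the 16 Kit+ libraries, a replicate block, a fold test and left-out libraries. Library measures were compared by exact permutation over 70 arrangements. Results for some named genes are not reported here.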

Additional observations from a re-analysis of the deposited data

Results flagged for a closer look

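Both genes that passed the contrast between antibodies differed in how far Kit+ CD45+ stood from Kit+ CD45- cells. The log2 fold change under anti-Dll4 minus that under IgG was 3.45 for F2rl2 and 6.65 for Gp6.

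A library standing far from the other 3 of its group was seen 26 times in 381 groups of 4 values (6.82%). The cutoff gives about 1 in 20 for independent normal values. Most values here are CPM on a linear scale, of genes read in the same libraries and often named by their p-values there. That rate is therefore only a rough guide. Of these, 9 were Kit+ CD45- IgG replicate 1. In CPM, that library had Aplnr 84.1, Cdh5 46.9, Dll4 22.9, Efnb2 29.5, Ephb4 24.2, Esam 243 and Nfil3 66.1, all above the other 3, and Ly6g6f 4.80, below them. Its myeloid transcription factor score, in mean log2(CPM + 1), was 3.94, against 3.2 to 3.25 in the others.

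In Kit+ CD45+ IgG, replicate 1 was low for F2rl2 (1.4 CPM), Capg (202 CPM) and the platelet score (3.41), and replicate 4 was high for Alox5ap (156 CPM) and Lsp1 (237 CPM).

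In Kit+ CD45+ anti-Dll4, replicate 1 was low for Esam (95.5 CPM), Flt4 (9.69 CPM), Zfp36 (183 CPM) and the arterial score (2.58). Replicate 2 was low for Cebpd (43.2 CPM) and high for Tal1 (18.7 CPM).

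In Kit+ CD45- anti-Dll4, replicate 4 was high for the matrix genes Dcn (93.6 CPM) and Lum (299 CPM), replicate 3 for Sox2 (23.8 CPM) and Zfp36 (102 CPM), and replicate 1 for Actc1 (23.1 CPM). In Kit+ CD45- IgG, replicate 3 was high for Dcn (19.3 CPM).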

How the results depend on the processing

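The direction of every named gene was kept in each alternative where its difference had been called. The count under anti-Dll4 (4560) was 3826 to 4998 under DESeq2, upper-quartile scaling, globin removal, 2 other filters, the 16 Kit+ libraries and the replicate block. A test against a fold of 1.5 gave 1954 (1159 higher, 795 lower), 1303 under IgG (611 and 692) and 4 platelet genes lower. Leaving out libraries or numbers gave 2351 to 4950 (1367 to 2771 higher, 984 to 2179 lower), and under IgG 1551 to 3397 (762 to 1752, 789 to 1645); the low ends were left-out numbers 4 and 2. With number 1 left out of both IgG populations, 5066 passed under anti-Dll4 (2866 higher, 2200 lower). The contrast between antibodies (2) gave 33 in DESeq2, 0 with no filter, 0 with the 16 Kit+ libraries, 1 with the replicate block, 0 to 29 with libraries or numbers left out (29 without number 1) and 11 with number 1 left out of both IgG populations, an alternative chosen after seeing the data; the cause was not tested. F2rl2 had an adjusted p of 0.055 and Gp6 of 0.090 with no filter, and 0.20 and 0.32 with the 16 Kit+ libraries. DESeq2 added Ly6g6f, Clec1b, Gp1bb, Cd226, Actn1, Actc1, Cacna2d3 and Slc25a20 among named genes. Members called or positive with libraries left out numbered 12 to 26 (endothelium, higher), 2 to 9 (platelet, lower), 4 to 7 (platelet, higher), 17 to 19 (macrophage), 6 to 10 (granulocyte-monocyte), 7 to 9 (myeloid factors), 27 to 27 (erythroid, lower), and for a positive difference 27 to 29 (endothelium), 12 to 18 (arterial), 7 to 9 (venous), 24 to 26 (platelet) and 6 to 12 (macrophage). A positive arterial difference was held by 8 at 10 CPM or more in 4 libraries, where fewer genes are tested, and a macrophage one by 5 with number 1 of both IgG populations left out. The file headers give the 3 populations of one antibody and number a shared leading number, whose meaning the labels do not state, and all 3 libraries of anti-Dll4 number 1 are male. Deviations of same-numbered Kit+ libraries correlated at 0.197, 0.0766, 0.109 and -0.0637 under anti-Dll4 and 0.0405 to 0.0761 under IgG, so not every pair passed 0.1. The replicate block on these sets gave 4876 calls under anti-Dll4 and 3334 under IgG.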

Other observations

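Gene groups outside the main lists are given for anti-Dll4 beside the 16.6% of all genes that were higher and the 12.6% that were lower in Kit+ CD45+ cells. Of 25 NF-kB and TNF response genes 18 were higher (72%) and 1 lower in the Kit+ CD45+ libraries. The inhibitors Nfkbia (1.70) and Tnfaip3 (2.67) and the adhesion molecule Icam1 (2.57) were among the higher. Of 18 immediate early genes, which also respond to tissue dissociation, 15 were higher (83.3%) and 1 lower. Of 23 genes of the G2 and M phases 13 were lower (56.5%) and 0 higher; Mki67 had 64.5, 58.9, 73.5 and 59.7 CPM in Kit+ CD45+ libraries, against 148, 207, 170 and 300 CPM in Kit+ CD45- libraries (log2 fold change -1.68, SE 0.19, edgeR adjusted p = 7e-07). Of 20 S phase genes 7 were lower (35%). The contrast between antibodies passed for 0 members of these lists, and it was negative for 22 of the 23 G2 and M phase genes.

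Of 14 mesenchymal genes 6 were lower in Kit+ CD45+ cells (42.9%) and 0 higher, and of 12 epithelial and neural genes 5 were lower (41.7%) and 0 higher. Krt18 did not pass, yet all of its Kit+ CD45+ values lay above all of its Kit+ CD45- values. Lum had 0.373 CPM in 1 Kit+ CD45+ library and 0 in the other 3, against 19.5, 0.882, 1.00 and 299 CPM in Kit+ CD45- libraries. Interferon response genes had 5 of 16 higher (31.2%), lymphoid genes 5 of 9 (55.6%), leukocyte surface genes 17 of 18 (94.4%), chemokines and their receptors 12 of 16 (75%) and mast cell genes 2 of 2.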
